A study of Mus musculus with 24 samples.

Results

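The 30 genes described here make cholesterol, control its synthesis, or dispose of it. They were chosen by name: 18 enzymes of the synthesis route from acetyl units to cholesterol, 6 genes of its control and intracellular transport (Srebf1, Srebf2, Scap, Insig1, Insig2, Stard4), and 6 genes of sterol efflux and bile acid synthesis (Abca1, Abcg1, Abcg5, Abcg8, Cyp7a1, Cyp8b1). At least 1 probe carried the name of 29 of them, 51 probes in all, among 37008 distinct names on the array. Acat2, the thiolase at the start of the route, had none, because the probe that covers it and its neighbour Acat3 is named Acat3 and was not used. To enter the tests of a tissue, a probe had to lie well above background at 1 or more of its times on all 4 arrays. By this filter 29 members were tested in liver and 26 in marrow, where Abcg5, Cyp7a1 and Cyp8b1 did not pass.

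Cholesterol is made in the cytosol and endoplasmic reticulum: Hmgcs1 and the mevalonate enzymes build isoprene units, Fdps and Fdft1 join them into squalene, and Sqle and Lss close the ring that the later enzymes trim to cholesterol. When membrane sterol is low, Scap escorts the transcription factor SREBP2 (Srebf2) to the Golgi for release, and SREBP2 then drives nearly all synthesis genes together; Insig1 and Insig2 hold Scap back when sterol is plentiful. Excess sterol activates LXR, which raises the exporters Abca1, Abcg1, Abcg5 and Abcg8. In the liver it is also turned into bile acids by Cyp7a1, the rate-limiting enzyme, and by Cyp8b1, which sets the share of cholic acid.

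Male Erfe-/- mice, which lack the erythroblast hormone erythroferrone, were bled through the retro-orbital sinus, and RNA of liver and bone marrow was measured on 24 single-colour Agilent arrays. Both tissues were sampled at 0, 24 and 48 h with 4 mice at each time, which gives 6 groups of 4 arrays. The 0 h groups are labelled control and the later groups phlebotomy, and every group carries the same Erfe-/- genotype, so no wild-type animal enters any comparison here. The labels state neither age nor strain background nor whether a liver and a marrow of the same number came from 1 mouse, and the marrow is whole tissue with no sort.

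Levels are log2 processed intensities minus each array's own 75th percentile, so 0 marks a probe as bright as that percentile, and levels of different genes are not compared. In intensity units that percentile ranged from 361 to 473 over 12 liver arrays and from 715 to 955 over 12 marrow arrays. All 14 hepatocyte markers were well above background on every liver array, and all 13 erythroid and all 10 neutrophil markers on every marrow array. The array of marrow 24 h replicate 2 stood apart: its 14 hepatocyte markers lay at a median of 12.6% of their mean liver level, against 0.00664% to 0.0231% on the other 11 marrow arrays. All 17 measured synthesis members were at their highest marrow level on this array. On the mm9 build, the probe of Idi1 lies at chr13:8891524-8891583, of Sqle at chr15:59162688-59162747, of Msmo1 at chr8:67196982-67197041, of Cyp7a1 at chr4:6193456-6193515 and of Cyp8b1 at chr9:121824595-121824654. The marrow changes of single genes at 24 h are also given without the array with liver transcripts. In whole tissue, fewer cells of a type and less RNA per cell cannot be told apart.

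Promoters of the members were read from RefSeq (assembly GRCm38.p6, 250 bases before to 50 bases after each start site), in which 24 of the 30 genes had an entry. Fdps, Fdft1, Sqle, Stard4, Cyp7a1 and Abcg1 had no entry. Sequences of 5 are shown because the results turn on these genes: Hmgcs1, Idi1 and Msmo1 as synthesis enzymes and Abca1 and Cyp8b1 as disposal genes. Capitals mark the motifs searched on both strands: TCACNCCAC, the core of a sterol regulatory element bound by SREBP; CCAAT (or ATTGG), the box bound by NF-Y, which works beside SREBP; and CACGTG, an E-box. The direct repeat bound by LXR was searched as well.
Hmgcs1 (chr13:119690101-119690400, plus strand): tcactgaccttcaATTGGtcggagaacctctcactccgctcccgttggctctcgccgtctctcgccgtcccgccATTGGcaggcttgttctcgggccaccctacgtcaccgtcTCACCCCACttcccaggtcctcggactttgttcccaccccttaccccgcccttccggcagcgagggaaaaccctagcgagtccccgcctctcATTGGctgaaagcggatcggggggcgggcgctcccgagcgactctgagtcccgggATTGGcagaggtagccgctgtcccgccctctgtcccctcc
Idi1 (chr13:8885356-8885655, plus strand): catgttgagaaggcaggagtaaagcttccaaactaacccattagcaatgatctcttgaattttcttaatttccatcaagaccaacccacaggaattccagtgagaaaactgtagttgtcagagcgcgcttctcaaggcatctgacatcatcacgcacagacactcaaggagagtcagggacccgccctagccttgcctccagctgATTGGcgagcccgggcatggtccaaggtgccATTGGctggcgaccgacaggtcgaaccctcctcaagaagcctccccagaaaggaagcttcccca
Msmo1 (chr8:64733529-64733828, minus strand): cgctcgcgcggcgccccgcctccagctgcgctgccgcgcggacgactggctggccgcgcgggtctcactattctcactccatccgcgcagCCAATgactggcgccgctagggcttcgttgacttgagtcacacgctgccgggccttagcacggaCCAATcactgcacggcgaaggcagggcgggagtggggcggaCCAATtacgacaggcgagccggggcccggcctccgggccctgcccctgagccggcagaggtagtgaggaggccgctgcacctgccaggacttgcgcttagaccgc
Abca1 (chr4:53159846-53160145, minus strand): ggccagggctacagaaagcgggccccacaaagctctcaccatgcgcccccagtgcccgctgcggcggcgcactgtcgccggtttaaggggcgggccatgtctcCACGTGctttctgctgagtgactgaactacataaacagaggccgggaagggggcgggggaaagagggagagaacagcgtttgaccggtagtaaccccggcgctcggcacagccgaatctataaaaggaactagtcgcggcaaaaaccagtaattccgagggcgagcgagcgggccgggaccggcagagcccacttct
Cyp8b1 (chr9:121916256-121916555, minus strand): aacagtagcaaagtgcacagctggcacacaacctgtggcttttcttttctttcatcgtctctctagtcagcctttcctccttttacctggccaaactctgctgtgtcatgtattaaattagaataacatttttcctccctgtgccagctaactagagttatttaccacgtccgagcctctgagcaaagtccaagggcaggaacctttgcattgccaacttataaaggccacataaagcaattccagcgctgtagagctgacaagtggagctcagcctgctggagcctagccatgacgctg
The 3 synthesis promoters hold CCAAT boxes, and Hmgcs1 holds in addition the sterol element, at position -137 from the start site. Over all promoters of the 15 synthesis genes with an entry, CCAAT occurred in 14 genes (93.3%), against 41.1% of the 27025 genes in the table, and only Acat2 lacked it. Per promoter the shares were 77.8% of 18 and 37.4% of 32851. The exact letters of the sterol element core occurred in 1 of the 15 synthesis genes, Hmgcs1, against 1.44% of all genes. CACGTG occurred in 3 of 15, against 8.09% of all genes. Of the 4 disposal genes with an entry, Abcg5 and Abcg8 held CCAAT and Abca1 held CACGTG, while the Cyp8b1 window held none of the motifs. The exact LXR repeat, with 4 bases between its parts, was in no member window and in 0.0148% of all genes. These are matches of exact letters in a short window and were not tested against binding. Sites that differ from the searched letters were not counted. A window without a match may therefore still hold a sterol element or an LXR site, Abca1 included.

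At 0 h the whole synthesis route was lower in marrow than in liver. Of the 26 members that passed the filter in both tissues, 25 were lower in marrow and 1, Abcg1, was higher, all past an adjusted p of 0.05 in the limma fit of both tissues. The other 3 of the 29, Abcg5, Cyp7a1 and Cyp8b1, entered this fit through liver alone, so that their lower marrow level follows from the filter and is no finding. Tissue differences are common on these arrays: 80.2% of the 22781 genes tested, genes that passed in 1 tissue alone included, were called, 40.6% lower in marrow and 39.6% higher, and the sizes are therefore given beside the calls. A difference of over 2 log2 units below liver was seen in 13.3% of all genes and in all 17 measured synthesis members. Their median difference was -4.09, while the median over all genes was -0.03. On the 3 slides taken singly the synthesis median was -3.95, -4.16 and -4.46.

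**Figure D1:**
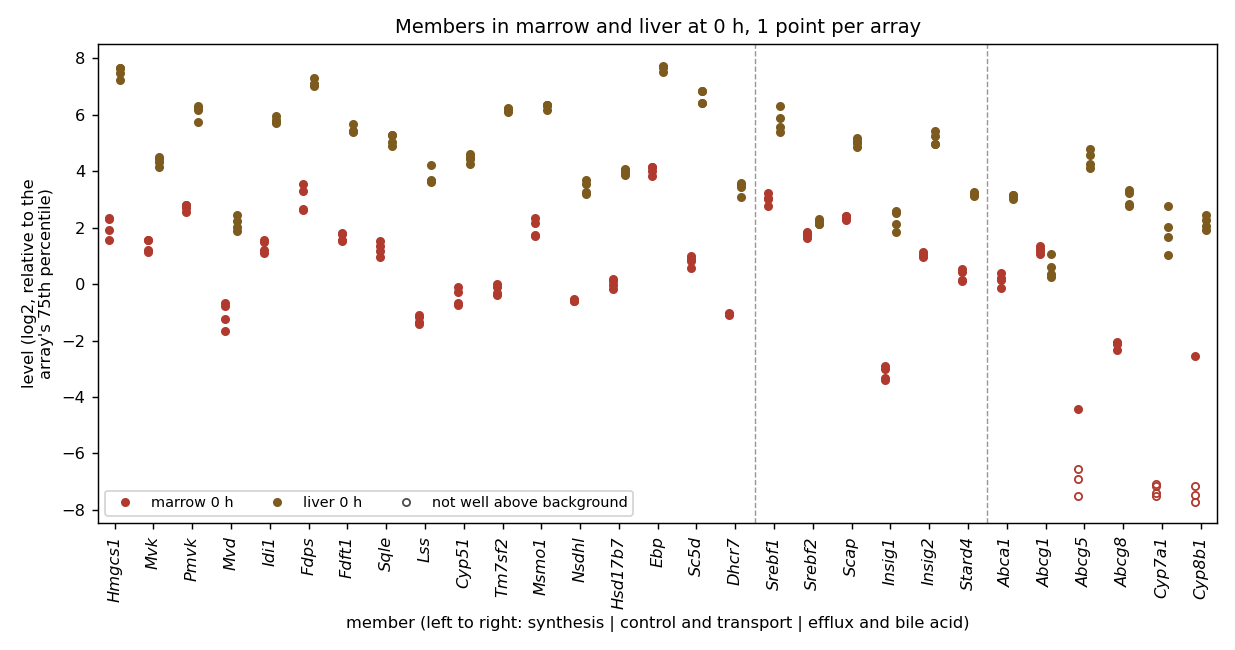
Level of each member (log2 relative to the array's 75th percentile, vertical axis) at 0 h on the 4 marrow arrays and the 4 liver arrays, 1 point per array, with open points where the probe was not well above background. Every synthesis enzyme sits lower in marrow, Srebf2 differs least between the tissues, and Abcg1 alone lies higher in marrow.

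Among the synthesis enzymes the difference was smallest for Mvk, the mevalonate kinase, at -2.98 ± 0.12 (SE), and largest for Tm7sf2, a sterol reductase, at -6.38 ± 0.34 (SE), which is 83.2-fold. Hmgcs1, which opens the mevalonate route, averaged 2.03 ± 0.36 in marrow and 7.49 ± 0.20 in liver (SD, n = 4), a difference of 44-fold. Sqle, which adds oxygen to squalene, averaged 1.25 ± 0.24 and 5.12 ± 0.19 (SD, n = 4), or 14.6-fold. The 4 marrow arrays lay below the 4 liver arrays for each of the 17 enzymes, as they did for 38.4% of all genes.

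The control genes did not share this gap evenly. Srebf2, the gene of SREBP2, was at 1.85, 1.64, 1.72 and 1.79 on the marrow arrays and 2.23, 2.12, 2.29 and 2.12 on the liver arrays. These groups did not overlap, and liver was 1.36-fold higher (adjusted p = 0.000155). Scap, its escort, differed by 6.39-fold and Srebf1, which favours fatty acid genes, by 6.8-fold. Insig1, a retention factor that SREBP2 itself induces, was at -2.89, -3.31, -3.00 and -3.40 in marrow and 2.14, 2.59, 2.52 and 1.85 in liver, a difference of 43-fold. Insig2 differed by 17.6-fold and Stard4, a carrier of sterol between membranes, by 7.38-fold.

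The efflux and bile acid genes split. Abcg1, an exporter to lipoproteins common in macrophages, was higher in marrow, at 1.25, 1.17, 1.36 and 1.07 against 1.06, 0.24, 0.60 and 0.37 in liver, a 1.56-fold difference (adjusted p = 0.000261). Abca1, which loads nascent lipoproteins, was 7.79-fold lower in marrow, at -0.15, 0.38, 0.16 and 0.22 against 3.15, 3.12, 3.16 and 3.02. Macrophage markers were present in both tissues, with a summed level of 204 to 256 in marrow and 68.9 to 111 in liver at 0 h, and their part in these levels was not tested. Abcg8, a subunit of the exporter of sterol into bile, was 36.4-fold lower in marrow. Its partner Abcg5 was well above background on 1 of 4 marrow arrays at 0 h and on all 4 liver arrays, at 4.79, 4.26, 4.58 and 4.09. Cyp7a1 was not well above background on any marrow array at 0 h, and its liver level was at least 135-fold higher. For this bound each marrow array was given the dimmest signal that passed as above background on it, or the value of the probe where that was brighter. Cyp8b1 was above background on 1 of 4 marrow arrays at 0 h (replicate 3, at -2.54), with the others at -7.14 to -7.70.

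In marrow 24 h after phlebotomy every measured synthesis enzyme had a fitted change above 0, but no single member passed the threshold. The 17 changes ran from 0.16 (Dhcr7) to 0.73 (Idi1) with a median of 0.51, while 44.6% of all genes lay above 0 and their median was -0.02. Without the array with liver transcripts 16 of the 17 stayed above 0, the median was 0.21 and Dhcr7, the last reductase of the route, was at -0.08. Of all 21399 genes, 1.01% were called at an adjusted p under 0.05, and of the 26 members 0 were. At an unadjusted p under 0.05, 7 synthesis members and Stard4 lay higher, against 5.75% of all genes. Without that array 6 synthesis members and Stard4 did, against 7.35%.

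**Figure D2:**
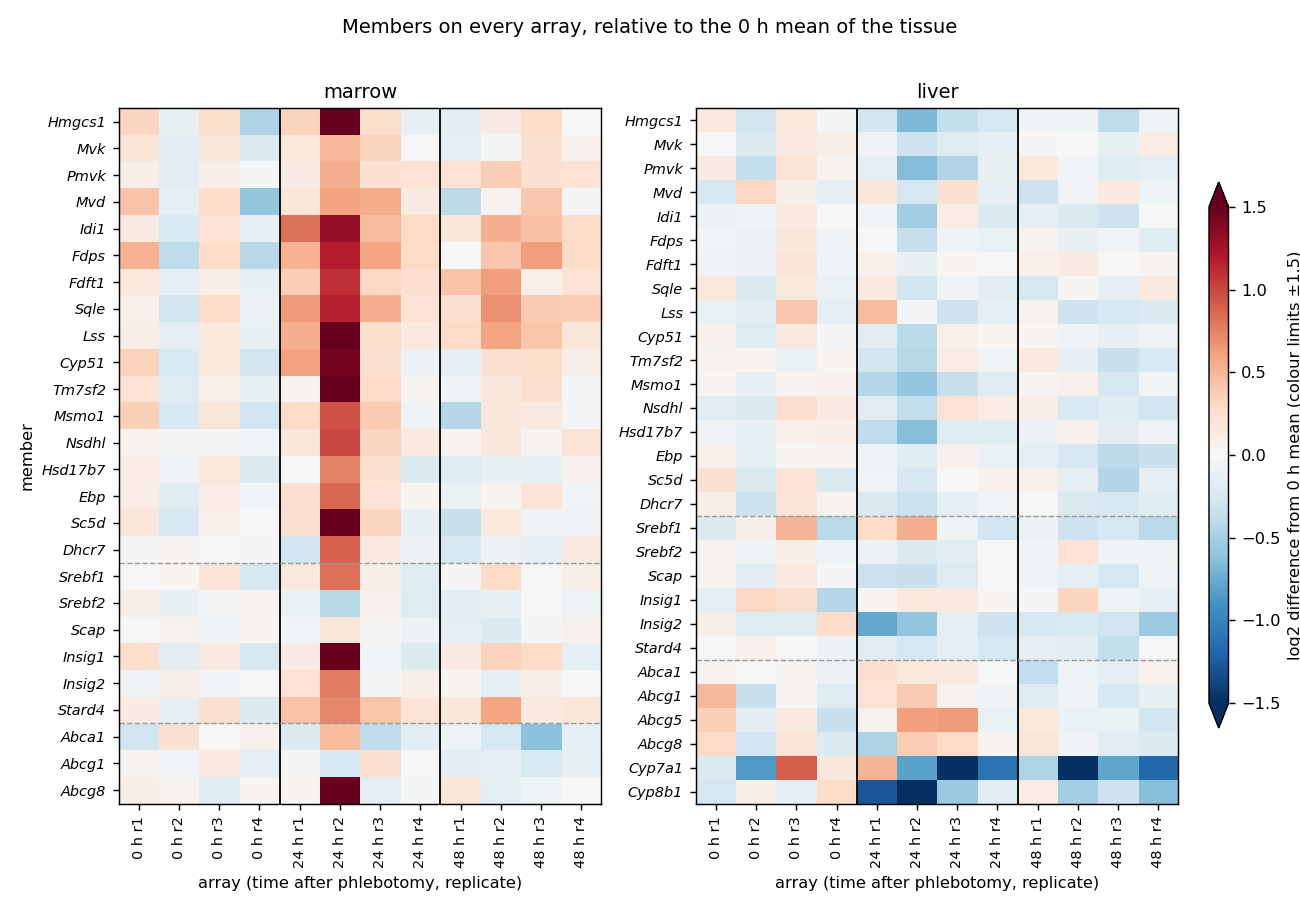
Difference of each member (rows) from its mean at 0 h in the same tissue, in log2 units by colour, on all 12 marrow arrays (left) and all 12 liver arrays (right), grouped by time and labelled by replicate. The column of marrow 24 h replicate 2 is red for all 17 synthesis enzymes, the other marrow columns at 24 h are mostly pale red, and the liver columns at 24 h are mostly blue, with Cyp7a1 and Cyp8b1 the most varied rows.

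Idi1, which isomerises the isoprene unit, was at 1.49, 1.12, 1.57 and 1.22 at 0 h, at 2.17, 2.66, 1.82 and 1.65 at 24 h and at 1.52, 1.88, 1.79 and 1.64 at 48 h in the order of replicates. All 4 arrays at 24 h lay above all 4 at 0 h, also with replicate 2 (2.66) left aside, and 3 of 4 did at 48 h. The fitted change at 24 h was 0.73 ± 0.20 (SE) with an adjusted p of 0.126, and 0.53 ± 0.15 (SE) with an adjusted p of 0.173 without the array. With the slide as a block it was 0.78 and past the threshold, at an adjusted p of 0.0487, the only call of a member within a tissue under any setting tried. That fit includes replicate 2 at 24 h (2.66), and the slide block was not fitted without it.

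Sqle was at 1.33, 0.97, 1.53 and 1.16 at 0 h, 1.88, 2.40, 1.78 and 1.47 at 24 h and 1.48, 1.94, 1.64 and 1.63 at 48 h. Its groups overlapped, since 0 h replicate 3 lay above 24 h replicate 4, and the change at 24 h was 0.63 ± 0.19 (SE), adjusted p = 0.166, or 0.46 ± 0.16 (SE) without the array. At 48 h it was 0.43 ± 0.19 (SE), adjusted p = 0.298. Hmgcs1 was at 2.35, 1.92, 2.29 and 1.56 at 0 h, 2.36, 3.66, 2.29 and 1.92 at 24 h and 1.86, 2.15, 2.31 and 2.04 at 48 h. Only replicate 2 at 24 h stood clear of the 0 h range, and the fitted change was 0.53 ± 0.32 (SE) with it and 0.16 ± 0.20 (SE) without it.

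**Figure D3:**
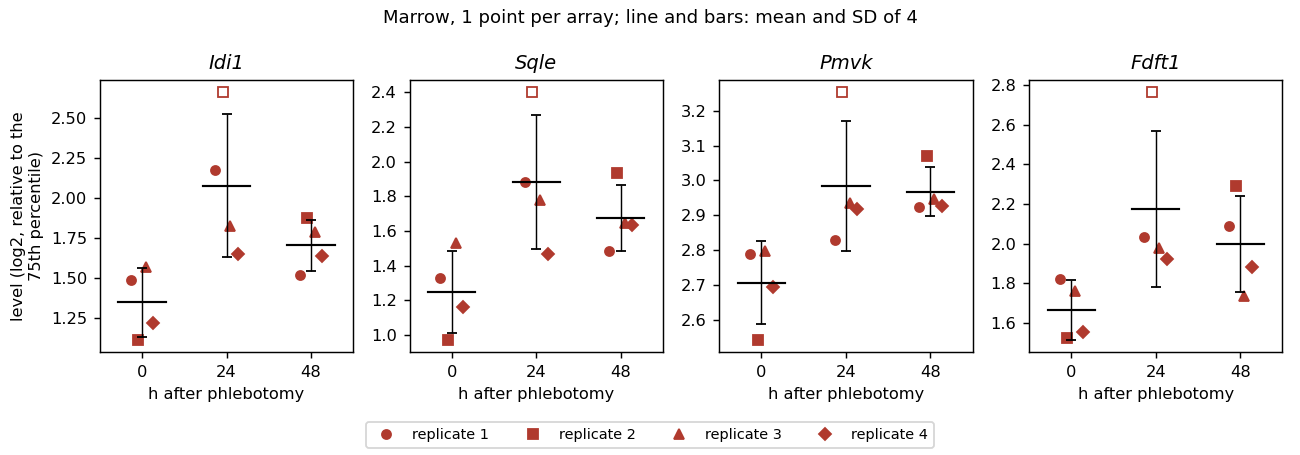
Marrow level (log2 relative to the 75th percentile) of Idi1, Sqle, Pmvk and Fdft1 at 0, 24 and 48 h, 1 marker shape per replicate number, with the mean and SD of 4 arrays. The open square is 24 h replicate 2, the array with liver transcripts, and the remaining 3 arrays at 24 h lie above all 0 h arrays for Idi1, Pmvk and Fdft1 but not for Sqle.

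Pmvk, the second mevalonate kinase, was at 2.79, 2.54, 2.80 and 2.69 at 0 h, 2.83, 3.25, 2.94 and 2.92 at 24 h and 2.92, 3.07, 2.95 and 2.93 at 48 h. Both later groups lay wholly above 0 h, by 0.28 ± 0.10 (SE) at 24 h and 0.26 ± 0.10 (SE) at 48 h, with adjusted p-values of 0.272 and 0.231. Its second kept probe gave 0.32 and 0.22, and 0.23 at 24 h without the array with liver transcripts. Fdft1, the squalene synthase, was at 1.82, 1.52, 1.76 and 1.55 at 0 h, 2.03, 2.77, 1.98 and 1.92 at 24 h and 2.09, 2.29, 1.74 and 1.88 at 48 h, with a change of 0.51 ± 0.19 (SE) at 24 h and 0.31 ± 0.13 (SE) without the array. Fdps, which makes farnesyl units, was at 3.55, 2.65, 3.30 and 2.61 at 0 h, 3.55, 4.21, 3.62 and 3.33 at 24 h and 3.03, 3.44, 3.66 and 3.33 at 48 h. Its change at 24 h was 0.65 ± 0.24 (SE), and 0.47 ± 0.23 (SE) without the array. The 0 h group overlapped both later groups, with its replicates 2 and 4 low. These 2 arrays were the lowest of the 12 marrow arrays for 7 and 6 of the 17 synthesis enzymes.

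The groups of 0 h and 24 h did not overlap for 4 synthesis members, Idi1, Pmvk, Fdft1 and Nsdhl, against 4.15% of all genes higher in this way, and without the array the same 4 were clear of 0 h, against 8.73%. With 4 arrays against 4 the exact two-sided permutation p for such a gene is 0.0286, the smallest the design allows. With the array left out their changes ran from 0.19 ± 0.08 (SE) for Pmvk to that of Idi1. Nsdhl, a sterol dehydrogenase, had a change of 0.41 ± 0.16 (SE), or 0.21 ± 0.08 (SE) without the array, and its second probe gave 0.13, or 0.056 without it. For Msmo1, a sterol methyl oxidase, 2 probes gave 0.40 and 0.52 and 1 gave -0.09, and without the array they gave 0.21, 0.35 and -0.24. The remaining enzymes overlapped 0 h. Within slides the synthesis median was 0.24, 0.91 and 0.35, the middle value on the slide that holds the array with liver transcripts.

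On that array the excess over the other 3 arrays at 24 h, set against the mean liver level at 24 h, was 2.96% to 6.60% for the 17 synthesis members with a median of 5.40%. The other members above their 3 companions there were 5 of 6 control genes and 5 of 6 efflux and bile acid genes, and the exceptions were Srebf2 and Abcg1, the 2 members whose levels differ least between the tissues. Abcg5, at 1.15, Cyp7a1, at -2.83, and Cyp8b1, at -3.63, were above background on this array alone among the 4 at 24 h.

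**Figure D4:**
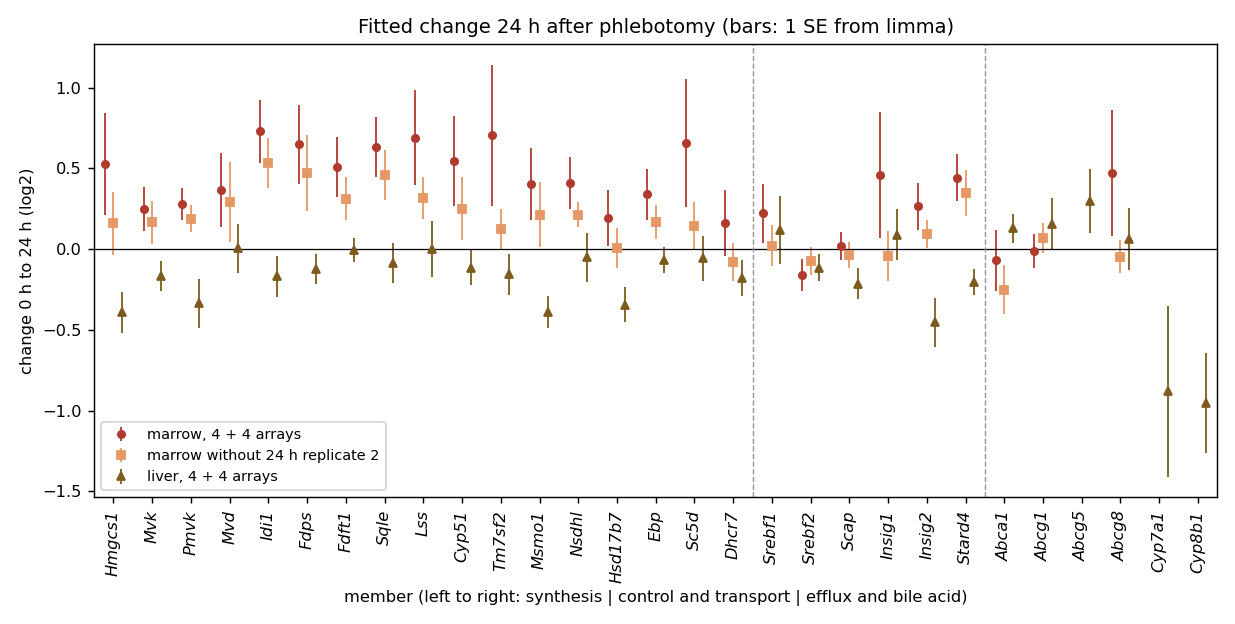
Fitted change of each member from 0 h to 24 h (log2, vertical axis; bars give 1 SE) in marrow with all arrays (circles), in marrow without 24 h replicate 2 (squares) and in liver (triangles). Squares lie nearer 0 than circles for the synthesis enzymes, with 16 of 17 above 0, and the liver triangles lie below 0 for 15 of 17.

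The control genes of marrow had a median change of 0.24 over 6 at 24 h and of -0.01 without the array. Stard4 was at 0.43, 0.16, 0.54 and 0.10 at 0 h, 0.73, 1.03, 0.72 and 0.52 at 24 h and 0.48, 0.90, 0.46 and 0.49 at 48 h, a change of 0.44 ± 0.15 (SE) at 24 h (adjusted p = 0.221) and of 0.35 ± 0.14 (SE) without the array. At 24 h 3 of its 4 arrays lay above the highest 0 h value. Insig1 was at -3.03, -1.19, -3.19 and -3.35 at 24 h and -3.03, -2.80, -2.86 and -3.28 at 48 h, which apart from replicate 2 at 24 h spans about the 0 h range given above. Its change at 24 h was 0.46 ± 0.39 (SE) with all arrays and -0.04 ± 0.16 (SE) without that one. Srebf1 was at 3.02, 3.05, 3.21 and 2.78 at 0 h, 3.17, 3.84, 3.10 and 2.83 at 24 h and 2.99, 3.31, 3.02 and 3.11 at 48 h, and only replicate 2 at 24 h was clear of the other values. Its change at 24 h was 0.22 ± 0.18 (SE), and 0.02 ± 0.13 (SE) without it. Srebf2 was at 1.65, 1.34, 1.82 and 1.55 at 24 h and 1.59, 1.64, 1.74 and 1.67 at 48 h, against 1.64 to 1.85 at 0 h, with changes of -0.16 ± 0.10 (SE) and -0.09 ± 0.10 (SE) that did not pass (adjusted p = 0.549 and 0.707). Without the array with liver transcripts the change at 24 h was -0.07 ± 0.09 (SE), and a second kept probe of Srebf2 gave 0.021 at 24 h and 0.051 at 48 h, so its direction in marrow differs between probes.

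The 3 efflux genes measurable in marrow gave a median of -0.01 at 24 h, -0.05 without the array with liver transcripts, and -0.15 at 48 h. Abca1 was at -0.06, 0.62, -0.23 and -0.00 at 24 h and 0.08, -0.12, -0.46 and 0.02 at 48 h, overlapping 0 h at both times, and its change was -0.07 ± 0.19 (SE) at 24 h, -0.25 ± 0.15 (SE) without the array, and -0.27 ± 0.19 (SE) at 48 h. Abcg1 was at 1.18, 0.95, 1.45 and 1.21 at 24 h and 1.06, 1.09, 0.98 and 1.10 at 48 h, with changes of -0.01 ± 0.10 (SE) and -0.15 ± 0.10 (SE). Without the array its change at 24 h was 0.07 ± 0.09 (SE), on the other side of 0. With all arrays neither gene passed the threshold, with adjusted p-values from 0.509 to 0.972. Over the same 24 h, 8 of 9 monocyte and macrophage markers had changes below 0 (median -0.31, and -0.25 without the array) and all 9 B-cell markers did (median -0.65 and -0.56), none past the threshold. The part of these cells in the members' levels was not tested.

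At 48 h the median change of the marrow synthesis genes was nearer 0. Of 17, 13 were above 0 with a median of 0.09 (all genes 50.3% and 0.00), and 0 of the 26 members were called against 1.23% of all genes. Sqle and Pmvk had an unadjusted p under 0.05, as did 10.2% of all genes in the higher direction. Without 24 h replicate 2, which enters only the estimate of the spread here, 5 synthesis members did (Sqle, Pmvk, Lss, Idi1 and Fdft1), against 11.1%. Pmvk and Lss, the ring-closing enzyme, were the 2 members whose 48 h arrays all lay above 0 h, against 8% of all genes. For Lss the probe used gave 0.37 at 48 h and its other 2 kept probes gave 0.48 and 0.061, so the size depends on the probe. Within slides the synthesis median at 48 h was -0.07, 0.08 and 0.29. All 13 erythroid markers had changes above 0 at 48 h with a median of 0.49, 1 of them called (Rhag, a membrane protein of red cells, at 0.74, adjusted p = 0.0357), and all 9 B-cell markers were below 0 with a median of -0.43. Their part in the members' levels was not tested. From 24 h to 48 h all 17 changes were below 0 with a median of -0.32, where 42.2% of all genes lay below 0. Without the array with liver transcripts 14 of 17 were below 0, with a median of -0.10, where 49.3% of all genes lay above 0. In that step 1 of 21399 genes was called (0.00467%) and 0 members, and 0 members had an unadjusted p under 0.05 against 7.68% of genes.

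In liver most synthesis genes had fitted changes below 0 at 24 h, again with no member past the threshold. Of 17 changes 15 were below 0, with a median of -0.12, against 55.4% and -0.02 over all genes. Lss and Mvd, the other two, were at 0.00. No gene at all was called in liver at 24 h (0%) by limma, while 10.9% had an unadjusted p under 0.05. Of the 29 members 8 did, all lower, against 5.97% of all genes in that direction: Msmo1, Hsd17b7, Hmgcs1 and Pmvk among the enzymes, Insig2, Stard4 and Scap among the control genes, and Cyp8b1.

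Msmo1 was at 6.33, 6.17, 6.33 and 6.36 at 0 h, 5.87, 5.71, 5.94 and 6.11 at 24 h and 6.32, 6.36, 6.05 and 6.26 at 48 h. Every 24 h array lay below every 0 h array, and 3 of the 4 arrays at 48 h were again above all of 24 h. The change was -0.39 ± 0.10 (SE) at 24 h (adjusted p = 0.325) and 0.34 ± 0.10 (SE) from 24 h to 48 h (adjusted p = 0.507), and its other 2 kept probes gave -0.24 and -0.00 at 24 h and 0.28 and -0.36 from 24 h to 48 h. Hsd17b7, a sterol ketone reductase, was at 3.92, 3.85, 4.04 and 4.07 at 0 h, 3.59, 3.34, 3.79 and 3.79 at 24 h and 3.89, 4.04, 3.80 and 3.89 at 48 h. Its 24 h arrays were below both other groups without overlap (3.23% of all genes lay lower than 0 h in this way, and 1.73% were higher at 48 h than at 24 h), with a change of -0.34 ± 0.11 (SE) (adjusted p = 0.354) and the same sign in its 2 other kept probes, at -0.33 and -0.23. Hmgcs1 was at 7.64, 7.21, 7.65 and 7.46 at 0 h, 7.22, 6.81, 7.14 and 7.23 at 24 h and 7.44, 7.41, 7.11 and 7.41 at 48 h. Its change at 24 h was -0.39 ± 0.13 (SE) (adjusted p = 0.362), with 0 h replicate 2 (7.21) inside the 24 h range, and a second, dimmer probe gave 0.61, so that the mean of its probes was 0.11.

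Sqle was at 5.28, 4.90, 5.28 and 5.02 at 0 h, 5.26, 4.84, 5.06 and 4.96 at 24 h and 4.87, 5.14, 4.98 and 5.27 at 48 h, with overlap between all groups and a change of -0.09 ± 0.12 (SE) at 24 h. The fitted change of Idi1 in liver was -0.17 ± 0.13 (SE), and those of Fdps and Fdft1 were -0.12 ± 0.09 (SE) and -0.00 ± 0.08 (SE). Array 24 h replicate 2 gave the lowest liver level of 12 of the 17 enzymes and 0 h replicate 3 the highest of 9. Without 24 h replicate 2 the synthesis median moved to -0.05. Within slides it was -0.02, -0.51 and -0.04, and the slide of the middle value holds both of these arrays.

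At 48 h the median of the liver synthesis genes was nearer 0. Of 17, 16 lay below 0 with a median of -0.07, against 55.9% and -0.02 of all genes, and 0 genes were called (0%) by limma, with 6.44% at an unadjusted p under 0.05. In the lower direction 3.88% of genes and 2 members, Ebp and Insig2, passed that unadjusted threshold. Ebp, the sterol isomerase, was at 7.73, 7.52, 7.68 and 7.67 at 0 h, 7.59, 7.47, 7.72 and 7.55 at 24 h and 7.51, 7.40, 7.26 and 7.32 at 48 h. All 4 arrays at 48 h lay below 0 h, by -0.28 ± 0.08 (SE) (adjusted p = 0.593), and its second probe gave -0.14. Ebp and Insig2 were also the 2 members of 29 lower without overlap, against 2.44% of all genes. Within slides the synthesis median at 48 h was 0.09, -0.25 and -0.07. From 24 h to 48 h 0 genes were called (0%), 7.63% had an unadjusted p under 0.05, and 12 of 17 enzymes were above 0 with a median of 0.03, against 50.1% of all genes. Of the members, Msmo1 and Hsd17b7 (higher) and Abca1 and Ebp (lower) had an unadjusted p under 0.05 in that step.

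Among the control genes of liver, Insig2 had the fitted change farthest below 0 at both times. It was at 5.25, 4.98, 4.96 and 5.42 at 0 h, 4.39, 4.56, 5.02 and 4.84 at 24 h and 4.91, 4.92, 4.85 and 4.60 at 48 h, a change of -0.45 ± 0.15 (SE) at 24 h and -0.33 ± 0.15 (SE) at 48 h (adjusted p = 0.365 and 0.771). At 24 h 3 arrays lay below the 0 h range and replicate 3 inside it, and its other 2 probes gave -0.48 and -0.32. Insig1 was at 2.30, 2.44, 2.41 and 2.31 at 24 h and 2.24, 2.60, 2.20 and 2.15 at 48 h, within or just above the 0 h range. Srebf1 was at 5.58, 5.88, 6.30 and 5.37 at 0 h, 6.08, 6.32, 5.72 and 5.49 at 24 h and 5.70, 5.48, 5.55 and 5.38 at 48 h, so that mice differed most within 0 h and the groups overlapped. Srebf2 was at 2.10, 1.97, 2.03 and 2.19 at 24 h and 2.13, 2.41, 2.13 and 2.14 at 48 h, with a change of -0.12 ± 0.08 (SE) at 24 h, where its second probe gave 0.074. Stard4, with a change of -0.20 ± 0.08 (SE), was the third member lower at 24 h without overlap, and its second probe gave 0.17.

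The bile acid enzymes had the largest fitted changes of the 29 members in liver at 24 h and also the widest spread between mice. Cyp7a1 was at 1.65, 1.01, 2.77 and 2.03 at 0 h, 2.38, 1.06, -0.25 and 0.76 at 24 h and 1.42, 0.02, 1.09 and 0.68 at 48 h. The SD over 4 mice was 0.73 at 0 h and 1.09 at 24 h, and the changes of -0.88 ± 0.53 (SE) and -1.06 ± 0.53 (SE) had adjusted p-values of 0.562 and 0.798. Cyp8b1 was at 1.92, 2.28, 2.05 and 2.45 at 0 h, 0.90, 0.37, 1.61 and 2.02 at 24 h and 2.29, 1.67, 1.87 and 1.54 at 48 h. At 24 h replicates 1, 2 and 3 lay below all 0 h arrays and replicate 4 inside their range, giving -0.95 ± 0.31 (SE) (adjusted p = 0.363), and at 48 h the change was -0.33 ± 0.31 (SE). The enzymes were not low in the same mice: 24 h replicate 1 held the highest Cyp7a1 level of that time and a low Cyp8b1 level, and replicate 3 the lowest Cyp7a1 level.

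**Figure D5:**
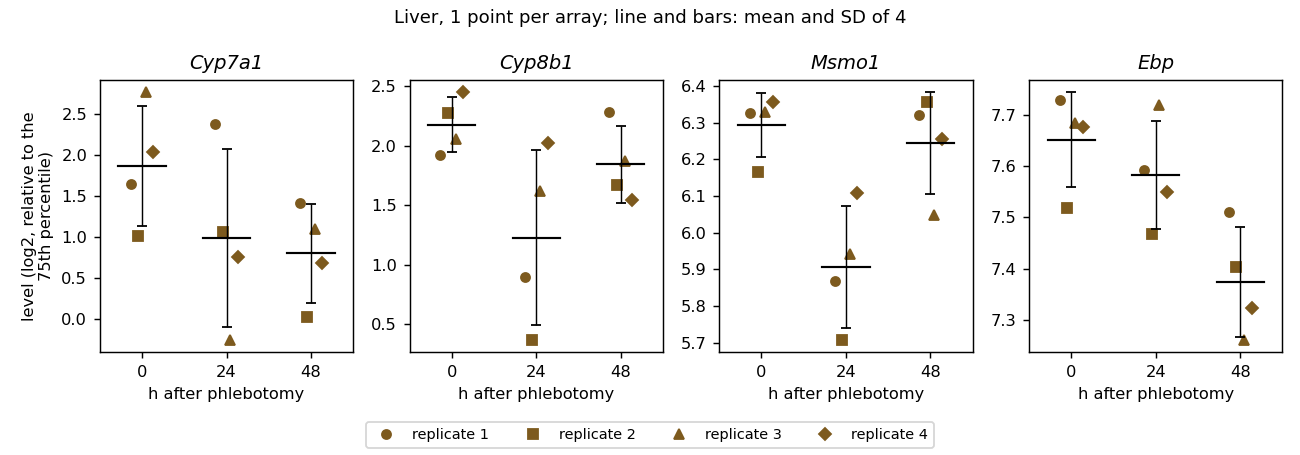
Liver level (log2 relative to the 75th percentile) of Cyp7a1, Cyp8b1, Msmo1 and Ebp at 0, 24 and 48 h, 1 marker shape per replicate number, with the mean and SD of 4 arrays. The vertical scales differ between panels: Cyp7a1 runs from -0.25 to 2.38 at 24 h alone, while all Msmo1 arrays at 24 h lie below 0 h and all Ebp arrays at 48 h lie below 0 h.

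The exporters of liver had fitted changes above 0 at 24 h for the probes used, none past the threshold, but the second probe of Abca1 lay below 0. Abca1 was at 3.15, 3.12, 3.16 and 3.02 at 0 h, 3.34, 3.26, 3.24 and 3.11 at 24 h and 2.74, 3.05, 2.96 and 3.17 at 48 h, with a change of -0.26 ± 0.09 (SE) between the later times (adjusted p = 0.562), and 3 of the 4 arrays at 48 h lay below all of 24 h. At 24 h its change was 0.13 ± 0.09 (SE). A second, dimmer probe, above background on all liver arrays, gave -0.35 at 24 h and 0.28 from 24 h to 48 h, the opposite direction in both steps, so no direction is given for Abca1 in liver. Abcg1 was at 1.06, 0.24, 0.60 and 0.37 at 0 h, 0.79, 0.96, 0.63 and 0.51 at 24 h and 0.37, 0.50, 0.33 and 0.45 at 48 h, and its 48 h arrays all lay below its 24 h arrays, as for 1.93% of all genes. Abcg5 and Abcg8 had fitted changes of 0.30 ± 0.20 (SE) and 0.06 ± 0.19 (SE) at 24 h and overlapped 0 h. The 6 disposal genes had a median of 0.09 at 24 h and -0.14 at 48 h. Bile acid genes are known to follow the time of day. Of 10 clock genes tested in liver 7 had changes above 0 at 24 h, with Dbp at 1.17 (adjusted p = 0.354) and Per3 at 0.91 (adjusted p = 0.513), and none was called. Neutrophil markers had a median change of 0.95 in liver at 24 h, 7 of 8 above 0 and none called. The part of either in the members' levels was not tested.

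The contrast between the tissues was tested directly as a difference of changes over all 24 arrays. At 24 h the marrow change exceeded the liver change in all 17 synthesis members, by a median of 0.66, where 49.9% of all genes lay above 0. No member of 29 was called, against 0.364% of 22781 genes, and 11 synthesis members had an unadjusted p under 0.05, against 5.96% of genes in that direction. Without the marrow array with liver transcripts it remained 17 of 17, with a median of 0.33 and 8 at an unadjusted p under 0.05, against 7.04%. Within slides, with all arrays, the median was 0.31, 1.40 and 0.47, and 14, 17 and 16 of 17 lay above 0. Slide 2 holds that array and liver 24 h replicate 2. The counts take the brightest probe. Another Msmo1 probe kept in both tissues gave -0.09 in marrow (-0.24 without the array) and -0.00 in liver. Without the array a second Sc5d probe gave 0.016 in marrow and 0.025 in liver. Other enzymes' further probes kept in both tissues gave the higher value in marrow. A second Hmgcs1 probe, kept in liver but not in marrow, gave -0.25 in marrow (-0.55 without the array) and 0.61 in liver. A Hsd17b7 probe kept in liver alone gave -0.30 in marrow (-0.51 without the array) and -0.33 in liver. In marrow these 2 probes were not well above background on all 4 arrays at any time. The smallest adjusted p-values were those of Stard4, at 0.0982 for a difference of 0.65 ± 0.17 (SE), and Idi1, at 0.116 for 0.90 ± 0.24 (SE), and without the array they were 0.158 for 0.55 ± 0.16 (SE) and 0.155 for 0.70 ± 0.20 (SE). The second kept probe of Stard4 changed by 0.41 in marrow and 0.17 in liver, so the size of its difference depends on the probe. Of the efflux and bile acid genes only Abca1, Abcg1 and Abcg8 passed the filter in marrow, and their differences at 24 h were -0.20 ± 0.22 (SE), -0.17 ± 0.20 (SE) and 0.41 ± 0.46 (SE). Without the array they were -0.38 ± 0.18 (SE), -0.09 ± 0.20 (SE) and -0.11 ± 0.23 (SE), and none passed the threshold. The value of Abca1 rests on the probe used, since its liver probes differ in direction at 24 h. At 48 h 16 of 17 synthesis members were above 0 with a median of 0.22, against 54% of all genes, and 0 members were called against 0.413%, with 2 at an unadjusted p under 0.05, against 11% of all genes. Within slides the synthesis median of the difference at 48 h was -0.20, 0.35 and 0.39. On slide 1 only 5 of 17 lay above 0, so the direction was not shared by all slides.

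Of 44 further genes of cholesterol and fatty acid metabolism, 37 were tested in marrow and 42 in liver, and limma called 0 in any of the 3 comparisons of either tissue. Before adjustment, p lay under 0.05 for 4, 3 and 2 of them in marrow (0 h to 24 h, 0 h to 48 h and 24 h to 48 h). These are 10.8%, 8.11% and 5.41%, where all genes gave 12.6%, 16% and 7.68%. In liver the counts were 9, 8 and 6, or 21.4%, 19% and 14.3%, where all genes gave 10.9%, 6.44% and 7.63%. In liver at 24 h, 11 of the 12 tested genes beside the synthesis route and of fatty acid synthesis were below 0 (median -0.16), as were 16 of 18 genes of sterol and bile acid sensing and bile acid synthesis (median -0.13), while 10 of 12 genes of sterol uptake, storage and transport were above 0 (median 0.15), where 55.4% of all genes lay below 0. In marrow at 24 h the same 12 genes beside the synthesis route and of fatty acid synthesis were all above 0 with a median of 0.27, where 44.6% of all genes lay above 0. Without the array with liver transcripts 10 of 12 were, with a median of 0.06, against 51.1% of all genes. The smallest unadjusted p-values in marrow were those of Abcb4, a phospholipid exporter, at 0.58 ± 0.13 (SE, adjusted p = 0.0624) at 48 h, Acaca, which opens fatty acid synthesis, at 0.34 ± 0.10 (SE, adjusted p = 0.157) at 24 h and 0.32 ± 0.11 (SE, adjusted p = 0.257) without that array, and Soat2, which esterifies cholesterol, at 0.72 ± 0.23 (SE, adjusted p = 0.166) at 48 h. In liver they were those of Soat2 at 0.34 ± 0.07 (SE, adjusted p = 0.425) and Scd1, a fatty acid desaturase, at -0.69 ± 0.15 (SE, adjusted p = 0.474) at 48 h, and of Akr1d1, a bile acid reductase, at -0.46 ± 0.11 (SE, adjusted p = 0.438) from 24 h to 48 h.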

How the data were processed

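Spot intensity was deposited per array, extracted with Agilent Feature Extraction 10.10.1.1 per the file headers and the submitters' processing notes, with background subtracted and no scaling between arrays. The authors also deposited log2 values whose making is not given in the sources used here. They keep the rank order of the median spot signal (Spearman 1), have column medians of 7.74 to 8.31, were used only as an alternative, and their centring stays unknown. Probe positions are mm9 per the file headers, and promoters are GRCm38.p6. Here log2 processed intensity minus the array's 75th percentile was used, without control and outlier spots. Of 56605 probes, 32994 were named by accession, 10224 by symbol and 520 by synonym through RefSeq, and 12867 kept the file's name. The brightest kept probe stood for a gene. Tests were limma 3.58.1 (lmFit, eBayes, R 4.3.3), two-sided, Benjamini-Hochberg over all genes, threshold 0.05, run also on simulated data. Members and lists were chosen with earlier results of these data known. Values on every array are printed for the 6 members with the smallest p over the 3 comparisons of each tissue and for 9 listed ones, and of the other pathway genes the 3 with the smallest p per tissue are named. P-values set a difference between group means against the spread between these mice. Tests between tissues treat liver and marrow arrays as independent, except in the alternative with a random block. The number of arrays limits precision.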

Additional observations from a re-analysis of the deposited data

Results flagged for a closer look

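In 12 of 165 groups of 4 arrays, 1 array lay apart from the other 3 by more than Dixon's critical share of the range. Chance gives about 1 such group in 20. Of these, 4 were on marrow 24 h replicate 2, the array with liver transcripts: Abcg8 at -0.12 (others -2.29 to -2.11), Insig1 at -1.19 (others -3.35 to -3.03), Tm7sf2 at 2.25 (others -0.16 to 0.09) and Fdft1 at 2.77 (others 1.92 to 2.03). Marrow 48 h replicate 2 was high for Pmvk, at 3.07, and for Stard4, at 0.90, with the others at 0.46 to 0.49. Liver 0 h replicate 3 was high for Fdft1, at 5.68, and Lss, at 4.20, and low for Tm7sf2, at 6.08. Msmo1 was low on liver 0 h replicate 2, at 6.17. Hmgcs1 was low on liver 48 h replicate 3, at 7.11, and Srebf2 was high on liver 48 h replicate 2, at 2.41.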

How the results depend on the processing

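No member was called within a tissue under any alternative but 1: with the slide as a block, 1 member (Idi1) was called in marrow at 24 h. That fit held all marrow arrays and was not repeated without 24 h replicate 2, the array with liver transcripts. Leaving out each array in turn gave 0 called members in every comparison over time and between changes, and 29 at 0 h between tissues. There, filtering on all arrays left 26 members, all called. The cause of these moves was not tested beyond the fits named. The synthesis median in marrow at 24 h ranged from 0.21 to 0.59 when 1 array was left out, the lowest without 24 h replicate 2, and it was 0.23 with array weights and 0.91 within slide 2. In liver it was -0.16 to -0.05 with 1 array left out at 24 h and -0.51 within slide 2, and at 48 h 0.090 within slide 1 and -0.25 within slide 2. The efflux and bile acid median in marrow was 0.23 at 24 h with no filter, where 6 members enter, and within slide 2 it was 0.47 at 24 h and -0.32 at 48 h. In liver at 48 h it was 0.073 within slide 1 and 0.025 within slide 3. Of 1872 single-member values in marrow 68 changed sign, of 2088 in liver 87, and of 2076 differences between tissues 66, none of them past the threshold.

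Same-numbered arrays of different times did not deviate together (correlations from -0.25 to 0.17 in marrow and -0.27 to 0.15 in liver), so the numbers do not pair them. With the replicate block 0 members were called in each comparison over time, 29 at 0 h between tissues, and the synthesis median in marrow at 24 h was 0.51. Liver and marrow of the same time and number correlated at 0.00 to 0.15, 11 of 12 best with their own number, a hint from the data and not the design. Each such pair also shared a slide, and the part of the slide in these correlations was not tested. With such pairs as a random block 0 members were called for a difference of changes. The deposited log2 values were not applied to the comparison at 0 h.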
